A study of Homo sapiens with 24 samples.

Results

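The mitochondrial respiratory chain is the set of protein complexes that passes electrons from nutrients to oxygen and uses the energy to make ATP. Its genes were taken by symbol: protein-coding genes starting with NDUF, SDH, UQCR, UQCC, ATP5 or ATPAF, or with COX, COA or SCO and a digit, together with CYC1, CYCS, SURF1 and BCS1L. The annotation of the arrays named 55 such genes among 14884 genes, and the same rule finds 133 in the RefSeq gene table. The named genes cover the complexes unevenly. Complex IV subunits were named for 17 of 17 genes, complex IV assembly factors for 15 of 22, complex III subunits for 6 of 10, complex III assembly factors for 6 of 7, complex II assembly factors for 4 of 4 and ATP synthase assembly factors for 2 of 2. Complex I assembly factors were named for 2 of 8 genes, and ATP synthase subunits and its inhibitor for 3 of 20. The subunits of complex I (0 of 38) and complex II (0 of 4), cytochrome c (0 of 1) and the 13 protein genes of mitochondrial DNA were not analysed here, so most of what follows concerns assembly factors and complexes III and IV. A long noncoding RNA or pseudogene carrying one of the symbols (COX10-DT, NDUFA6-DT, NDUFB2-AS1 and UQCRBP1) was left out.

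RNA came from 4 established human acute myeloid leukaemia lines, HL60, KG1a, MOLM14 and U937, and was measured on 24 Affymetrix arrays. Each line was grown untreated (control) or with 10 mM metformin for 24 h, a drug that the design text names as an inhibitor of complex I, with 3 arrays per group lettered A to C. Control KG1a and MOLM14 are labelled high for oxidative phosphorylation (OXPHOS), while HL60 and U937 are labelled low, treated or not. Metformin-treated KG1a and MOLM14 are high as lines and low as treated cells, and the stated aim was a gene signature of high OXPHOS function. The labels do not tell separate cultures from repeat arrays of 1 culture, and the p-values therefore cover only the spread among these arrays, which may be technical.

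Complexes I and II feed electrons to ubiquinone, complex III hands them to cytochrome c, complex IV reduces oxygen, and the ATP synthase lets protons back through the inner membrane to make ATP. Most subunits come from nuclear genes and must be joined to the few made inside the mitochondrion. Assembly factors insert copper, haem, flavin and iron-sulfur clusters, or hold a new subunit until its partners arrive, and are not part of the finished complex.

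Values are log2 normalized signals, and changes are metformin minus control group means with their standard error (SE) after the ± sign. A gene passed where limma's moderated test, adjusted by Benjamini-Hochberg over 10641 genes, gave a p under 0.05. Of the 55 genes, 51 reached the level asked for testing, a group mean of at least 4.02 (the median of all rows). Within groups the arrays correlated at 0.983 to 0.993. In earlier results of these data 3 arrays stood apart, control C of HL60, control C of U937 and metformin A of U937. The interquartile range of all rows was 1.90 on HL60 control C, 1.99 on U937 control C and 2.28 on U937 metformin A, against 2.09 to 2.31 on the others. Markers of the lines were read as a check. Of the progenitor markers, CD34 was at 11.24 in control KG1a and at most 3.61 in the other lines, while PROM1 (at most 4.02) and KIT (at most 4.37) were low in every group. Of the promyelocytic markers, MPO was highest in control HL60 (12.48) with MOLM14 at 8.93, but AZU1, PRTN3 and CTSG were lower in control HL60 (6.97, 11.36 and 9.81) than in control MOLM14 (10.1, 12.26 and 11.25) and U937 (8.7, 11.82 and 10.43). LYZ, a monocytic marker, was at 9.88 in control MOLM14, 9.43 in U937, 7.26 in HL60 and 3.46 in KG1a. CD68, another, was at 9.73, 8.59, 6.32 and 5.04 in that order. MNDA (6.87, 10, 6.53 and 3.57), CSF1R (5.99, 4.37, 4.12 and 4.28) and FCN1 (4.37, 6.53, 4.51 and 4.23) stood out in MOLM14 or U937 but not in both. CD14, a marker of mature monocytes, lay between 3.44 and 3.72 in every group. Of the 2 epithelial markers read, EPCAM lay between 3.87 and 4.04 and KRT18 between 6.6 and 7.62. In whole cultures, fewer cells of a kind and less RNA per cell cannot be told apart.

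Metformin changed the respiratory chain genes by small amounts and in both directions. Averaged over the 4 lines, 23 of 51 passed (45.1%, against 32.3% of all genes tested), 8 higher (15.7%, against 16.3%) and 15 lower (29.4%, against 16.1%). This split moved with the scaling of the arrays. Centred arrays gave 8 higher and 10 lower (16.3% and 13.7% of all genes), and quantile normalization 6 and 17 (14.7% and 20.1%). One of the 8 was COX8C, which lay under 4.02 in 3 lines. Among the 50 genes that reached 4.02 in each line, 7 were higher and 15 lower (44%, against 37% of 7931 genes). With at least 1 group mean of 5 asked for, the same 23 genes and UQCRC1 passed, and so did 42.6% of all genes. The shares of all genes thus rose with the level asked for. The median change of all 51 genes was -0.063, beside -0.006 over all 10641 genes, and 19 of the 51 lay above 0, beside 48.2% of all genes. The changes ran from -0.54 for COA3 to 0.42 for SDHAF4. Assembly factors stood at both ends, and the subunits that passed changed by at most 0.20 either way. Leaving out the 3 arrays that stood apart gave 20, with 5 higher and 15 lower, and leaving out HL60 gave 10. The shares of all genes under these settings are not given here. With each line as 1 value (n = 4) only SDHAF4, NDUFAF8 and COA3 passed limma's test, with adjusted p of 0.0289, 0.0424 and 0.0263, where 4.38% of all genes did. Recomputed without each line and each array in turn, 7 of the 23 changes passed every time, those of COA3, SDHAF4, NDUFAF8, SDHAF1, COA7, ATP5IF1 and ATP5MK.

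**Figure D1:**
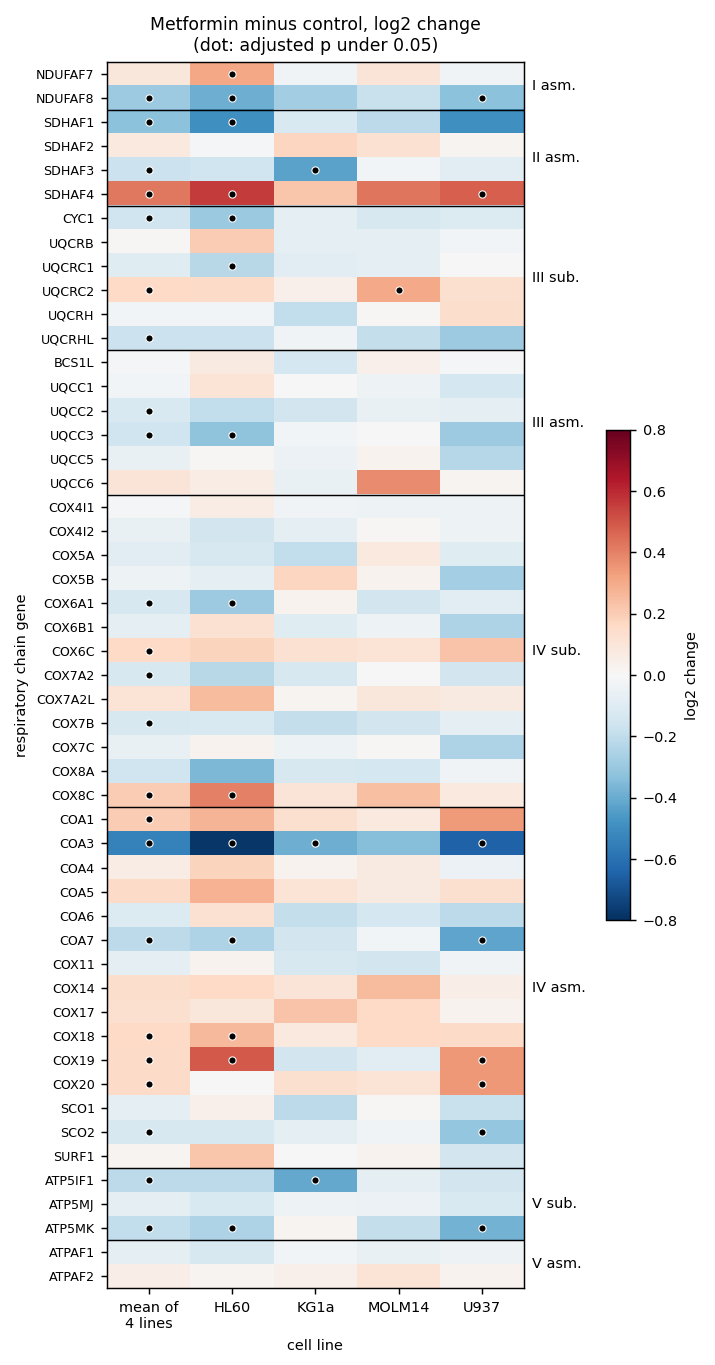
Log2 change with metformin for each of the 51 respiratory chain genes tested (rows, grouped by role, subunits as sub. and assembly factors as asm., the ATP synthase as V) for the mean of 4 lines and in each cell line (columns), with blue for lower and red for higher, and a dot where the adjusted p is under 0.05. COA3 was lowest in HL60 (-0.78) and U937 (-0.65), SDHAF4 was above 0 in all lines, and the KG1a and MOLM14 columns hold 3 and 1 dots against 14 in HL60 and 8 in U937.

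Promoter windows of 250 bases before to 50 after the gene start were available for 46 of the 55 genes (RefSeq, GRCh38.p14) and were searched on both strands for 5 short motifs. TGCGCA, the core bound by NRF1, a regulator of respiratory genes, was in 12 of 46 windows (26.1%), beside 11.2% of the 9707 windows of annotated protein-coding genes and 8.42% of all 27305 windows. CCGGAAG, an ETS motif as bound by GABP, was in 15 (32.6%), beside 15.6% and 10.7%. AAGATGG (YY1) was in 5 (10.9%, beside 6.68% and 6.06%), CACGTG (E-box) in 5 (10.9%, beside 9.1% and 7.43%) and TGATGCA (C/EBP-ATF) in 0 of 46, beside 1.84% and 2.69%. A gene starting in the other direction within 1000 bases was found for 12 of the 46 (26.1%, beside 19.6% of annotated protein-coding genes).

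The bases before the start are printed for the 3 genes whose change passed with each line as 1 value (COA3, NDUFAF8, SDHAF4) and for 3 genes that hold both leading motifs and are described further on (SDHAF2, SDHAF3, COX5B). Each is written 5′ to 3′ on the gene's strand and stops where the RefSeq record of a neighbouring gene begins. Capitals mark TGCGCA and CCGGAAG or its reverse complement CTTCCGG. The positions are chr17:42798705-42798784 (minus strand) for COA3, chr17:81239664-81239913 for NDUFAF8, chr6:70566680-70566929 for SDHAF4, chr11:61429976-61430123 for SDHAF2, chr7:97117448-97117697 for SDHAF3 and chr2:97645812-97646061 for COX5B, the last 5 on the plus strand.
COA3: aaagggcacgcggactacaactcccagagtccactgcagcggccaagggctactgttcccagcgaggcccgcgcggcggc
NDUFAF8: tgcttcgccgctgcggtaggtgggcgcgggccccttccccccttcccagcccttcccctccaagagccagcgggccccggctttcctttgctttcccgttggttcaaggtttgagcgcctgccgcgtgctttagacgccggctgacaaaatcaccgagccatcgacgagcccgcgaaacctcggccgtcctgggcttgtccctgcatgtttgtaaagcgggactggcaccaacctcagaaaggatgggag
SDHAF4: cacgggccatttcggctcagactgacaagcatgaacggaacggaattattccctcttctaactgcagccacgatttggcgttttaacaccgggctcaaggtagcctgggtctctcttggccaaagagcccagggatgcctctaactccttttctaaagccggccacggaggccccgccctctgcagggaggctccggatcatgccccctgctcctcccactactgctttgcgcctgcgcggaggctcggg
SDHAF2: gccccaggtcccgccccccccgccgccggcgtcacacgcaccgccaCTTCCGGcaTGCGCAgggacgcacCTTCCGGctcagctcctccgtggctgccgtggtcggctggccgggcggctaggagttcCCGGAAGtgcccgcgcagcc
SDHAF3: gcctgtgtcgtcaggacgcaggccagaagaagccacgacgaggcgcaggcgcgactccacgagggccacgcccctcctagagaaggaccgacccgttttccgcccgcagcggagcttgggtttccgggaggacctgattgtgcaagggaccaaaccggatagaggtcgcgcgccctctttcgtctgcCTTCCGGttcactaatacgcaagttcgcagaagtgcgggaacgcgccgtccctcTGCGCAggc
COX5B: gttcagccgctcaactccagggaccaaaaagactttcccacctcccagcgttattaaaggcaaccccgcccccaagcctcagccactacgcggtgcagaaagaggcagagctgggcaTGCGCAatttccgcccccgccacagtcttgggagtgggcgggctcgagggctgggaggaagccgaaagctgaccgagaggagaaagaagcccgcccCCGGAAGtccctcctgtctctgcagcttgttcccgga

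The windows of COA3, NDUFAF8 and SDHAF4, which fell, fell and rose, held none of the 5 motifs over the whole 300 bases. COA3, NDUFAF8 and SDHAF2 are among the 12 with a neighbour that runs the other way, CNTD1 at 157 bases, TEPSIN at 859 and CPSF7 at 149. Among genes with a window, TGCGCA was in 2 of the 7 that rose, 3 of the 11 that fell and 7 of the 25 that did not pass. CCGGAAG was in 1 of 7, 3 of 11 and 11 of 25. These are matches of letters and show no binding.

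**Figure D2:**
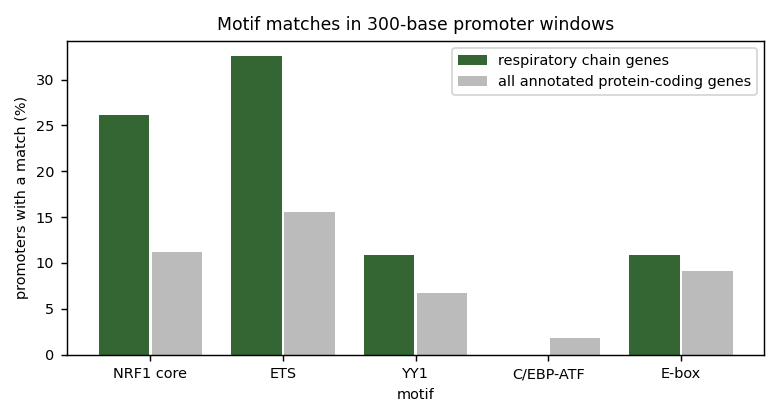
Percent of promoter windows (bars, y axis) that hold each motif (x axis), for the respiratory chain genes and for all annotated protein-coding genes. The NRF1 core and the ETS motif stand at 26.1% and 32.6% in the respiratory chain genes, against 11.2% and 15.6%.

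Both complex I assembly factors were tested. NDUFAF8, a partner of the factor NDUFAF5, fell by 0.29 ± 0.055 over the 4 lines (adjusted p 2.02e-04). In HL60 its control arrays read 7.54, 7.21 and 7.07 and its metformin arrays 6.90, 7.06 and 6.69. KG1a gave 7.45, 7.43 and 7.39 against 7.03, 7.15 and 7.25. Every metformin array thus lay below every control array of its line, though in HL60 control C and metformin B were nearly equal. MOLM14 gave 6.91, 6.96 and 6.95 against 6.80, 6.65 and 6.84, and U937 gave 6.99, 7.06 and 6.75 against 6.69, 6.50 and 6.61, again without overlap. Within single lines the change passed in HL60 (-0.39 ± 0.110, adjusted p 0.0111) and U937 (-0.33 ± 0.110, adjusted p 0.0393), and was -0.28 in KG1a and -0.18 in MOLM14. The HL60 call was lost without control A (adjusted p 0.0890) or metformin C (0.0781). The U937 call was lost without any of 5 of its arrays, all but control C (0.0520 to 0.162), and with centred arrays (0.0663). NDUFAF7, a methyltransferase that acts on a complex I subunit, rose in HL60, with control arrays at 7.69, 7.66 and 7.57 and metformin arrays at 7.95, 7.98 and 7.93 (0.31 ± 0.076, adjusted p 0.00393). Its changes were -0.03 in KG1a, 0.10 in MOLM14 and -0.03 in U937, and the difference between lines did not pass (F test, adjusted p 0.0916).

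Of the 4 complex II assembly factors, 1 rose and 2 fell (75%, against 32.3% of all genes), too few genes for a result about the complex. SDHAF4, which binds the flavin-loaded catalytic subunit, rose by 0.42 ± 0.075 (adjusted p 1.19e-04). Its arrays read 5.57, 5.45 and 5.16 in control HL60 and 6.16, 5.89 and 5.81 with metformin. In MOLM14 they read 6.31, 6.14 and 6.41 against 6.81, 6.53 and 6.81, and in U937 5.69, 5.56 and 5.27 against 6.04, 5.74 and 6.16. In those 3 lines the groups did not overlap. KG1a gave 5.62, 5.87 and 5.30 against 5.71, 5.69 and 6.04, which overlap. The rise passed in HL60 (0.56 ± 0.150, adjusted p 0.00737) and U937 (0.48 ± 0.150, adjusted p 0.0291), and was 0.43 in MOLM14 and 0.22 in KG1a. The HL60 call was lost without control C (adjusted p 0.0552) or metformin A (0.0535). In U937 it was lost without control B (0.0541), control C (0.142), metformin A (0.0962) or metformin C (0.127), and it was also lost without the 3 arrays that stood apart (0.33, adjusted p 0.231).

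SDHAF1 and SDHAF3, both needed for the iron-sulfur clusters of complex II, fell. SDHAF1 fell by 0.33 ± 0.087 (adjusted p 0.00511) from low levels. Control HL60 read 4.76, 4.65 and 4.32 and metformin 4, 3.85 and 4.41, which overlap, and control U937 read 4.82, 4.96 and 4.62 against 4.03, 4.48 and 4.42, which do not. The HL60 change (-0.49 ± 0.173, adjusted p 0.0405) was lost without control A (adjusted p 0.138), control B (0.107), metformin A (0.120) or metformin B (0.186). It was also lost with quantile normalization (0.0525) and centred arrays (0.0639). SDHAF3 fell by 0.17 ± 0.051 (adjusted p 0.0107), with the change in KG1a the widest: control arrays at 5.85, 5.96 and 6.00 and metformin arrays at 5.59, 5.36 and 5.55 (-0.43 ± 0.102, adjusted p 0.0231). Its change was -0.16 in HL60, -0.02 in MOLM14 and -0.09 in U937, and -0.09 for the mean without KG1a, which no longer passed (adjusted p 0.292). The KG1a call was lost without control B (0.0748), control C (0.103) or metformin B (0.111). SDHAF2, which attaches the flavin, did not pass (0.08).

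Complex III had 1 subunit higher and 2 lower among 6 (50%, against 32.3% of all genes), again few genes. UQCRC2, a core subunit, rose by 0.16 ± 0.038 (adjusted p 0.00273). Its MOLM14 arrays read 10.15, 10.32 and 10.28 untreated and 10.53, 10.53 and 10.60 with metformin, with no overlap (0.30 ± 0.076, adjusted p 0.0182). This was the only call among the 51 genes in MOLM14, and it was lost without control A (adjusted p 0.120), metformin A (0.0514) or metformin C (0.0865). Without MOLM14 the mean change was 0.11 and did not pass (adjusted p 0.0999). CYC1, the haem subunit cytochrome c1, fell by 0.16 ± 0.041 (adjusted p 0.00497), with HL60 at 7.67, 7.76 and 7.78 against 7.47, 7.54 and 7.28 (-0.30 ± 0.083, adjusted p 0.00851) and changes of -0.08 to -0.13 elsewhere. Its HL60 call was lost without metformin C (0.0663), and its mean call without HL60 (-0.11, adjusted p 0.112). UQCRHL fell by 0.17 ± 0.057 (adjusted p 0.0266), but it and UQCRH (-0.02) are near-identical copies whose signals may mix, so neither value is certain. The UQCRHL call was lost without any of 5 of the 24 arrays (adjusted p 0.0517 to 0.0575), without HL60 (0.0541), MOLM14 (0.0849) or U937 (0.162), and with centred arrays (0.0570). UQCRC1, the other core subunit, fell in HL60 (-0.22 ± 0.079, adjusted p 0.0438), a call lost without any of 7 arrays (0.0504 to 0.182) and with centred arrays (0.124). It did not pass over the mean (-0.10, adjusted p 0.0669). The ubiquinone-binding subunit UQCRB stood at 0.01 ± 0.066.

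Among the 6 complex III assembly factors, UQCC3 (-0.16 ± 0.057, adjusted p 0.0369) and UQCC2 (-0.12 ± 0.043, adjusted p 0.0295), which act on new cytochrome b, fell. This share of 33.3% was near the 32.3% of all genes. UQCC3 read 5.72, 5.49 and 5.34 in control HL60 and 5.18, 5.18 and 5.23 with metformin, without overlap (-0.32 ± 0.114, adjusted p 0.0407), and it changed by 0.00 in MOLM14. The mean call for UQCC3 was lost without any of 10 of the 24 arrays (adjusted p 0.0541 to 0.0762). Its HL60 call was lost without any of 5 of the line's 6 arrays (0.0682 to 0.193) and with centred arrays (0.0887). Without HL60 its mean was -0.10 (adjusted p 0.297) and without U937 -0.11 (0.235). The mean call for UQCC2 was lost without any of 6 arrays (0.0510 to 0.0608), without HL60 (0.168), KG1a (0.0865) or MOLM14 (0.0523), and with centred arrays (0.0703), where that for UQCC3 was lost too (0.0625). UQCC6, chosen after its values were seen, had MOLM14 control arrays at 5.77, 5.67 and 6.05 and metformin arrays at 6.27, 6.18 and 6.17, which do not overlap, but its 0.38 ± 0.115 did not pass (adjusted p 0.0548). BCS1L, which places the iron-sulfur subunit, stood at -0.01.

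Complex IV subunits rose in 2 cases and fell in 3 among 13 tested (38.5%, against 32.3% of all genes). COX6C, a small nuclear-coded subunit, rose by 0.16 ± 0.053 (adjusted p 0.022), with changes of 0.11 to 0.23 in the 4 lines. It was 0.11 and no longer passed without the 3 arrays that stood apart (adjusted p 0.119), without HL60 it was 0.15 (0.0568) and without U937 0.14 (0.105). Nor did it pass with quantile normalization (0.12, 0.0563). COX8C, the testis isoform of subunit 8, counted as higher (0.20 ± 0.044, adjusted p 9.87e-04), yet it lay under 4.02 in 6 of 8 groups. In HL60 it read 3.24, 3.22 and 3.25 untreated and 3.68, 3.77 and 3.46 with metformin, both under that level, while in U937, where the signal is high, it read 8.31, 8.26 and 8.20 against 8.43, 8.23 and 8.34, which overlap. Without HL60 the mean no longer passed (0.14, adjusted p 0.0570).

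The falls in complex IV subunits were small. COX7B fell by 0.13 ± 0.049 (adjusted p 0.0409), COX7A2 by 0.13 ± 0.048 (adjusted p 0.0464) and COX6A1 by 0.13 ± 0.039 (adjusted p 0.0147). The COX7B call was lost without any of 13 of the 24 arrays (adjusted p 0.0534 to 0.0889), and without HL60 (0.0698), KG1a (0.170) or MOLM14 (0.106). It was also lost with no filter (0.0548) and without the 3 arrays that stood apart (0.0801). The COX7A2 call was lost without any of 18 of the 24 arrays (0.0558 to 0.0984), without HL60 (0.238), KG1a (0.0967) or U937 (0.149), and with no filter (0.0623) or the replicate block (0.0566). Centred arrays ended both calls (COX7B 0.0757, COX7A2 0.0915). The COX6A1 call held without each single array but was lost without HL60 (-0.07, 0.315) or MOLM14 (0.0644). COX6A1 read 11, 10.90 and 10.94 in control HL60 and 10.67, 10.68 and 10.61 with metformin, without overlap (-0.29 ± 0.079, adjusted p 0.00795). COX6A1 has a second row with a mean of 4.17 beside the one used (10.69), and the mean of both rows did not pass (-0.07, adjusted p 0.215), so its value is uncertain. COX8A, the widely expressed form of subunit 8, was at -0.16 ± 0.069 and did not pass (adjusted p 0.0781). COX4I1, COX5A, COX5B, COX6B1, COX7A2L and COX7C did not pass either, and their changes lay between -0.09 and 0.11. The tissue isoforms COX6A2 and COX7A1 of muscle and COX6B2 and COX7B2 of testis had all 8 group means under 4.02 and were not tested, and COX4I2, the lung isoform, lay between 4.18 and 4.39.

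Among the 15 complex IV assembly factors, 4 were higher and 3 lower (46.7%, near the 45.1% of all 51 genes, against 32.3% of all genes tested). COA3 (also called MITRAC12), which holds newly made COX1 in its early assembly intermediate, fell by 0.54 ± 0.052 (adjusted p 2.89e-08). Control HL60 arrays read 8.46, 8.32 and 8.24, and metformin arrays 7.52, 7.56 and 7.58. U937 gave 7.88, 8.05 and 7.92 against 7.03, 7.53 and 7.34. The metformin arrays lay under all controls in both lines. In HL60 the gap between the groups was wider than the spread within them, and in U937 the metformin arrays were spread more widely than the gap. KG1a gave 8.19, 8.26 and 8.14 against 7.60, 7.93 and 7.89, and MOLM14 gave 7.92, 7.79 and 7.82 against 7.57, 7.41 and 7.52, also without overlap. The change was -0.78 ± 0.104 in HL60 (adjusted p 5.39e-06), -0.65 ± 0.104 in U937 (adjusted p 1.41e-04), -0.39 ± 0.104 in KG1a (adjusted p 0.0444) and -0.34 ± 0.104 in MOLM14, which did not pass (adjusted p 0.0546). The KG1a call was lost without any of 16 of the 24 arrays, with adjusted p of 0.0509 to 0.244, the highest without KG1a metformin A. It was also lost with quantile normalization (0.0595), centred arrays (0.0600), no filter (0.0581), the replicate block (0.0515) and in a fit on the 6 KG1a arrays (0.0970). The calls for the mean, HL60 and U937 held under every alternative run.

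COA7, another complex IV assembly factor, fell by 0.21 ± 0.042 (adjusted p 4.16e-04). In U937 it read 7.27, 7.27 and 7.15 untreated and 6.65, 6.84 and 6.94 with metformin (-0.42 ± 0.084, adjusted p 0.00117), and in HL60 7.15, 7.18 and 7.22 against 6.93, 6.84 and 7.05 (-0.25 ± 0.084, adjusted p 0.032), with no overlap in either. The HL60 call was lost without control B (adjusted p 0.0687), control C (0.0933), metformin A (0.0790) or metformin B (0.146), without the 3 arrays that stood apart (0.0575), with centred arrays (0.0912) and in a fit on the 6 HL60 arrays (0.0885). The U937 call held in every alternative run at this threshold. In MOLM14 it changed by -0.02. SCO2, which delivers copper to COX2, fell by 0.13 ± 0.041 (adjusted p 0.0138), with U937 at 5.42, 5.43 and 5.42 against 5.08, 5.18 and 5.08 (-0.31 ± 0.082, adjusted p 0.0105). Its mean did not pass without U937 (-0.08, adjusted p 0.294) or without HL60 (-0.14, adjusted p 0.0575), and its U937 call was lost without the 3 arrays that stood apart (0.0567). SCO1, its relative, stood at -0.08.

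The 4 complex IV assembly factors that rose over the mean of lines were COA1 (0.20 ± 0.064, adjusted p 0.0156), COX18 (0.16 ± 0.046, adjusted p 0.00874), COX19 (0.15 ± 0.051, adjusted p 0.0285) and COX20 (0.15 ± 0.050, adjusted p 0.0268). COX18 inserts the tail of COX2 into the membrane, COX20 is a chaperone of COX2, and COX19 takes part in copper delivery. COA1 and COX20 no longer passed without the 3 arrays that stood apart (0.14, adjusted p 0.101, and 0.11, adjusted p 0.0612). Without HL60 none of COA1 (0.18, adjusted p 0.0806), COX18 (0.13, 0.105) and COX19 (0.04, 0.742) passed, and without U937 none of COA1 (0.16, 0.0981), COX19 (0.08, 0.349) and COX20 (0.08, 0.360). COX20 also missed the threshold without KG1a (adjusted p 0.0664), MOLM14 (0.0515), MOLM14 control C (0.0503) or MOLM14 metformin C (0.0536). COX18 rose within HL60, from 7.44, 7.46 and 7.30 to 7.67, 7.72 and 7.59 with no overlap (0.26 ± 0.092, adjusted p 0.0429), a call lost without any of 6 arrays (0.0506 to 0.167). Quantile normalization (0.104) and leaving out the 3 arrays that stood apart (0.167) ended it too. COX20 rose in U937, from 8.47, 8.67 and 8.44 to 8.81, 8.94 and 8.89 with no overlap (0.35 ± 0.101, adjusted p 0.0166), and its change was 0.00 in HL60, 0.13 in KG1a and 0.11 in MOLM14. That U937 call was lost without control A (0.0651), control C (0.0662) or metformin B (0.0544).

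COX19 differed between lines. In HL60 its arrays read 5.11, 4.99 and 5.16 untreated and 5.55, 5.54 and 5.63 with metformin, and in U937 5.00, 5.30 and 5.12 against 5.45, 5.54 and 5.48. All metformin arrays of those lines lay above their controls (0.49 ± 0.102, adjusted p 0.00102, and 0.35 ± 0.102, adjusted p 0.0191). KG1a read 5.12, 4.86 and 4.81 against 4.73, 4.77 and 4.85, and MOLM14 5.26, 5.32 and 5.62 against 5.15, 5.36 and 5.42. There the groups overlapped and the changes were -0.15 and -0.09. The U937 call was lost without control A (adjusted p 0.105), control C (0.0513) or metformin B (0.0582), and without the 3 arrays that stood apart (0.0730). The mean over the 4 lines was lost without any of 7 of the 24 arrays (0.0512 to 0.0593) and with quantile normalization (0.10, adjusted p 0.156).

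Of the ATP synthase, 3 genes were measured beside its assembly factors. ATP5IF1, the inhibitor that blocks ATP hydrolysis, fell by 0.21 ± 0.044 (adjusted p 7.94e-04), with KG1a at 6.78, 6.72 and 6.71 against 6.17, 6.39 and 6.42, without overlap (-0.41 ± 0.088, adjusted p 0.0142). That call was lost without control A (adjusted p 0.0593) or metformin A (0.0926). ATP5MK, a small membrane subunit at the dimer interface, fell by 0.20 ± 0.039 (adjusted p 3.47e-04). U937 gave 8.03, 8.18 and 8.16 against 7.76, 7.68 and 7.79 (-0.38 ± 0.079, adjusted p 0.0017) and HL60 8.07, 7.87 and 7.93 against 7.79, 7.69 and 7.63 (-0.25 ± 0.079, adjusted p 0.0222). The groups overlapped in neither line, and KG1a changed by 0.02. The HL60 call was lost without any of 3 arrays (adjusted p 0.0605 to 0.105) and with centred arrays (0.0741). ATP5MJ (-0.08), ATPAF1 (-0.07) and ATPAF2 (0.05), the last 2 being chaperones of the F1 subunits, did not pass.

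**Figure D3:**
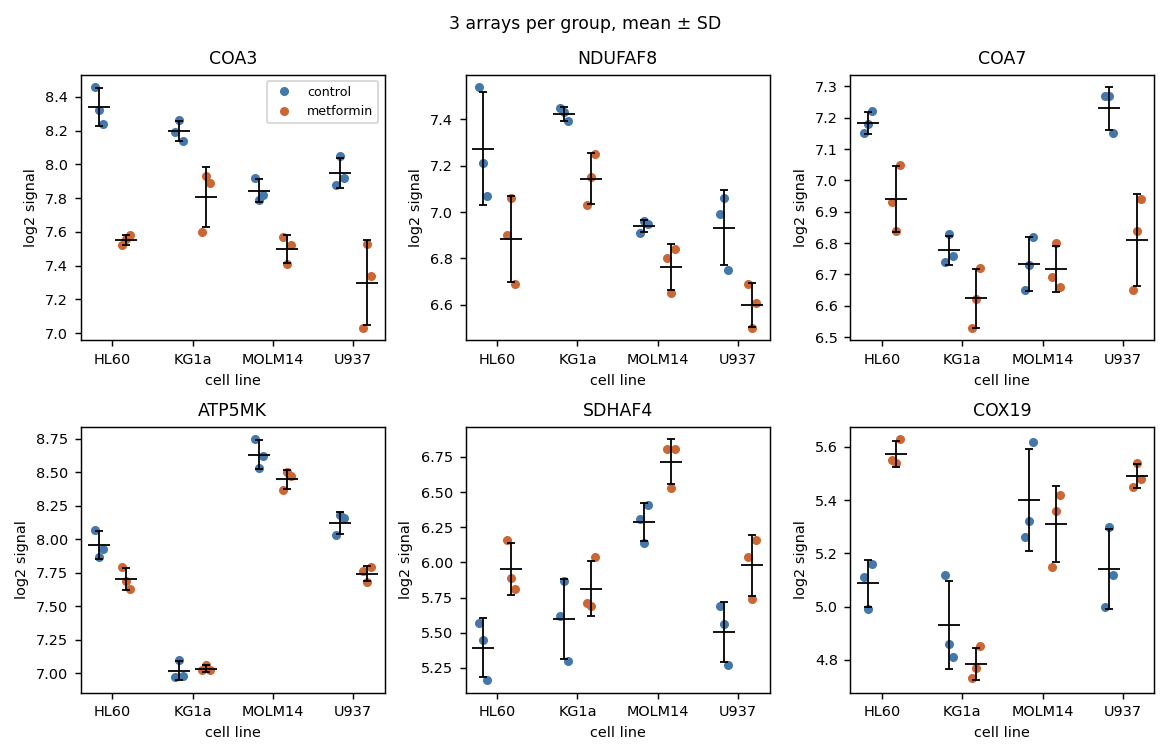
Log2 signal (y axis) on each of the 3 control and 3 metformin arrays of each line (x axis) for COA3, NDUFAF8, COA7, ATP5MK, SDHAF4 and COX19, with lines at the mean ± SD. COA3 and NDUFAF8 lie lower with metformin in all 4 lines without overlap, while COX19 is higher in HL60 and U937 and overlaps in KG1a and MOLM14.

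Counts differed widely between lines, as they did over all genes. In HL60, 14 of 51 passed (27.5%, against 25.1% of all genes), 5 higher (15.5% of all genes) and 9 lower (9.56% of all genes). One of the 5 was COX8C, under 4.02 in both HL60 groups, and among the 50 genes that reached that level in HL60, 4 were higher and 9 lower (26%, against 28.6% of such genes). Over all 51, quantile normalization gave 4 higher and 14 lower (12% and 14.5% of all genes), and centred arrays 5 and 4 (17% and 6.48%). In U937, 8 passed (15.7%, against 17.2%), 3 higher (7.46% of all genes) and 5 lower (9.74%), and 5 in all without the 3 arrays that stood apart. In KG1a, 3 passed (5.88%, against 2.49%), 0 higher (0.818% of all genes) and 3 lower (1.67%). In MOLM14, 1 passed (1.96%, against 5.06%), 1 higher (2.48% of all genes) and 0 lower (2.57%). At an unadjusted p under 0.05, limma's moderated test gave 0 genes higher and 5 lower in KG1a, and 4 higher and 2 lower in MOLM14. The share of all genes at that threshold is not given here. The members' medians were 0.005 in HL60, -0.041 in KG1a, 0.002 in MOLM14 and -0.046 in U937, beside 0.000, -0.022, 0.004 and -0.007 over all genes. Arrays without overlap were found for 7 genes higher and 13 lower in HL60 (21.2% and 16% of all genes), 2 and 8 in KG1a (7.31% and 13.7%), 5 and 5 in MOLM14 (13.3% and 13%) and 5 and 11 in U937 (13.6% and 16.3%). COA3 and NDUFAF8 were the genes whose metformin arrays lay under all controls in each of the 4 lines (2 of 51, 3.92%, against 1.76% of all genes), and none lay above in each (against 1.17%). Of the 26 calls within single lines, 7 were kept in every alternative fit at this threshold: COA3, COX19, NDUFAF7 and the low-signal COX8C in HL60, and COA3, COA7 and ATP5MK in U937. In fits on the 6 arrays of 1 line, the HL60 calls of NDUFAF8, CYC1, UQCRC1, UQCC3, COA7, COX18 and ATP5MK were lost. So were SDHAF3, COA3 and ATP5IF1 in KG1a, UQCRC2 in MOLM14, and NDUFAF8, SDHAF4, COX19, COX20 and SCO2 in U937. The adjusted p of these lost calls ran from 0.0523 to 0.119 by limma.

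A change that passes in 1 line and not in another is no test of a difference, so the differences were tested. Between the 4 lines, the metformin change differed for COX19 alone (1 of 51, 1.96%, against 10% of all genes, limma's F test, adjusted p 0.00648). The adjusted p was 0.117 for COA3, 0.742 for NDUFAF8 and 0.623 for SDHAF4. Between the high lines KG1a and MOLM14 and the low lines HL60 and U937, it differed for 2 (3.92%, against 6.69%), 1 with the difference above 0 (2.05% of all genes) and 1 below (4.64%). For COX19 the high minus low difference was -0.54 ± 0.102 (adjusted p 0.00172), and without HL60 it was -0.47, which no longer passed (adjusted p 0.0623). For COA3 the fall was smaller by 0.35 ± 0.104 in the high lines (adjusted p 0.0449). That call was lost without any of 18 of the 24 arrays (adjusted p 0.0501 to 0.0870), without HL60 (0.285), KG1a (0.132) or MOLM14 (0.203), and without the 3 arrays that stood apart (0.0549).

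Untreated lines differed in nearly every respiratory chain gene, 49 of 51 (96.1%, against 83.2% of all genes, F test), the exceptions being COX4I2 (adjusted p 0.896) and COX14 (adjusted p 0.837). With at least 1 group mean of 5 asked for, the same 49 passed and so did 94.3% of all genes. The widest range was that of COX8C, at 8.26 ± 0.05 (SD, n = 3) in U937 and 2.95 to 3.24 in the other lines. ATPAF1, the chaperone of the F1 beta subunit, followed. It read 7.30, 7.27 and 7.02 in HL60 and 7.22, 7.21 and 7.09 in KG1a, which overlap. In U937 it read 5.95, 5.80 and 5.68, and in MOLM14 4.76, 4.85 and 5.03, so the 3 levels stood apart.

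ATP5MK was highest in MOLM14 (8.75, 8.53 and 8.62) and lowest in KG1a (6.97, 7.10 and 6.98), with HL60 (7.95 ± 0.10) and U937 (8.12 ± 0.08) between and overlapping. SDHAF2 was highest in KG1a (8.23, 8.28 and 8.33), above MOLM14 (7.20, 7.26 and 7.20), HL60 (7.25, 7.12 and 7.07) and U937 (6.78, 6.94 and 6.94). MOLM14 and HL60 overlap in that order. COX5B, a nuclear-coded complex IV subunit whose window with both motifs is printed above, was low in KG1a (5.62, 5.22 and 5.42) and higher in MOLM14 (6.40 ± 0.10), HL60 (6.56 ± 0.28) and U937 (6.57 ± 0.18), which overlap. COA1 was low in MOLM14 (6.14 ± 0.15) and ran from 6.90 to 7.29 in the others.

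**Figure D4:**
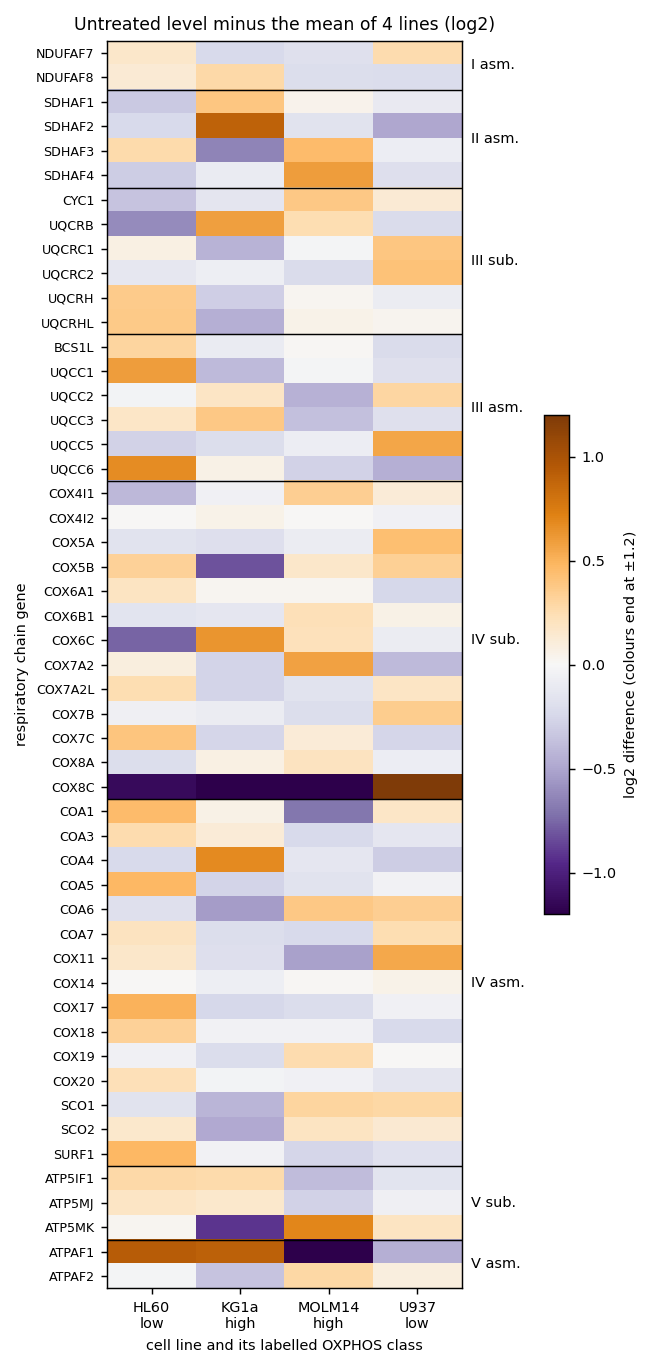
Untreated level of each of the 51 genes (rows, by role) in each line (columns), as the log2 difference from the gene's mean over the 4 untreated lines, with colours ending at the limits of the scale. COX8C stands out in U937, ATPAF1 is low in MOLM14 and U937, and SDHAF2 is high in KG1a.

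Untreated KG1a and MOLM14, labelled high, were above HL60 and U937 for some respiratory chain genes and below them for more. With the high lines compared with the low lines, and the same order asked of all 4 pairs of line means, 18 of 51 passed (35.3%, against 27.6%), 7 higher in the high lines (13.7%, against 11.5%) and 11 lower (21.6%, against 16.1%). The median difference was -0.135, beside -0.029 over all genes, and 16 of 51 lay above 0, beside 46.2% of all genes. Arrays are replicates of a line and not of a class, so with 2 lines a class these tests describe these 4 lines.

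Higher in KG1a and MOLM14 were 3 of the 4 complex II assembly factors, SDHAF2 (0.73 ± 0.064, adjusted p 3.46e-10), SDHAF4 (0.49 ± 0.106, adjusted p 2.62e-04) and SDHAF1 (0.43 ± 0.123, adjusted p 0.00365). Over all genes 11.5% were higher, and 4 genes are too few for a result about complex II. COX6C read 6.81, 7.08 and 6.80 in KG1a and 6.47, 6.46 and 6.52 in MOLM14, against 5.54, 5.66 and 5.30 in HL60 and 6.14, 6.36 and 6.03 in U937 (0.85 ± 0.074, adjusted p 3.32e-10). UQCRB read 6.47, 6.55 and 6.63 and 6.26, 6.05 and 6.32, against 5.19, 5.60 and 5.27 and 5.77, 5.88 and 5.55 (0.83 ± 0.094, adjusted p 3.10e-08). For both genes every array of the high lines lay above every array of the low lines. COA4 (0.55 ± 0.066) and COX8A (0.28 ± 0.098) completed the 7. Single lines carried part of this: without KG1a the difference for COA4 was 0.14 and did not pass (adjusted p 0.140), and that for SDHAF2 was 0.20 (adjusted p 0.0464). Without MOLM14 that for SDHAF4 was 0.15 (adjusted p 0.358), and without HL60 that for COX6C was 0.52 (adjusted p 1.94e-05). The SDHAF4 order over the 4 pairs was also lost without KG1a control B, where the difference was 0.42, or U937 control C, where it was 0.43.

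Lower in KG1a and MOLM14 were 5 of 15 complex IV assembly factors, 4 of 13 complex IV subunits, UQCRC1 and NDUFAF7, where 16.1% of all genes were lower. COX11, which delivers copper to COX1, read 7.04, 7.10 and 7.10 in KG1a and 6.93, 6.51 and 6.81 in MOLM14, under all arrays of HL60 (7.47, 7.51 and 7.33) and U937 (7.93, 7.86 and 7.66), a difference of -0.71 ± 0.067 (adjusted p 1.29e-09). COX17, a copper chaperone upstream of it, was at -0.45 ± 0.084, COA7 at -0.45 ± 0.059, COA5 at -0.43 ± 0.113 and COA1 at -0.63 ± 0.090. HL60 carried most of the COX17 and COA5 differences. COX17 was at 6.72 in HL60 but 6.17 in U937, beside 5.97 in KG1a and 6.01 in MOLM14. COA5 was at 6.10, 5.58, 5.36 and 5.46 in that order. For both genes single arrays of U937 overlapped those of KG1a and MOLM14. UQCRC1 was at -0.47 ± 0.056, with KG1a at 6.97, 6.81 and 7.03 and MOLM14 at 7.29, 7.42 and 7.30, against 7.43, 7.35 and 7.54 in HL60 and 7.75, 7.77 and 7.77 in U937. Its order held for line means, while single arrays of MOLM14 and HL60 overlapped. Without KG1a the UQCRC1 difference was -0.27 (adjusted p 0.00265) and without U937 -0.31 (8.53e-04). COX8C counts among the 11 through U937 alone, since HL60, KG1a and MOLM14 lay under 4.02, where their order says nothing, so no difference is given and 10 remain without it. COX5B (-0.66 ± 0.105) was at -0.17 without KG1a and did not pass (adjusted p 0.239). COX7A2L, a factor in joining complexes III and IV, was at -0.43 ± 0.086, COX7B at -0.29 ± 0.069 and NDUFAF7 at -0.42 ± 0.054. For COX7B, KG1a (7.77) and HL60 (7.79) were nearly equal with overlapping arrays, while U937 stood at 8.21. After quantile normalization COX7B was not among the lower genes. COA1 was at -0.25 without MOLM14 (adjusted p 0.0697), and its order over the 4 pairs was lost without KG1a control C, where the difference was -0.56.

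**Figure D5:**
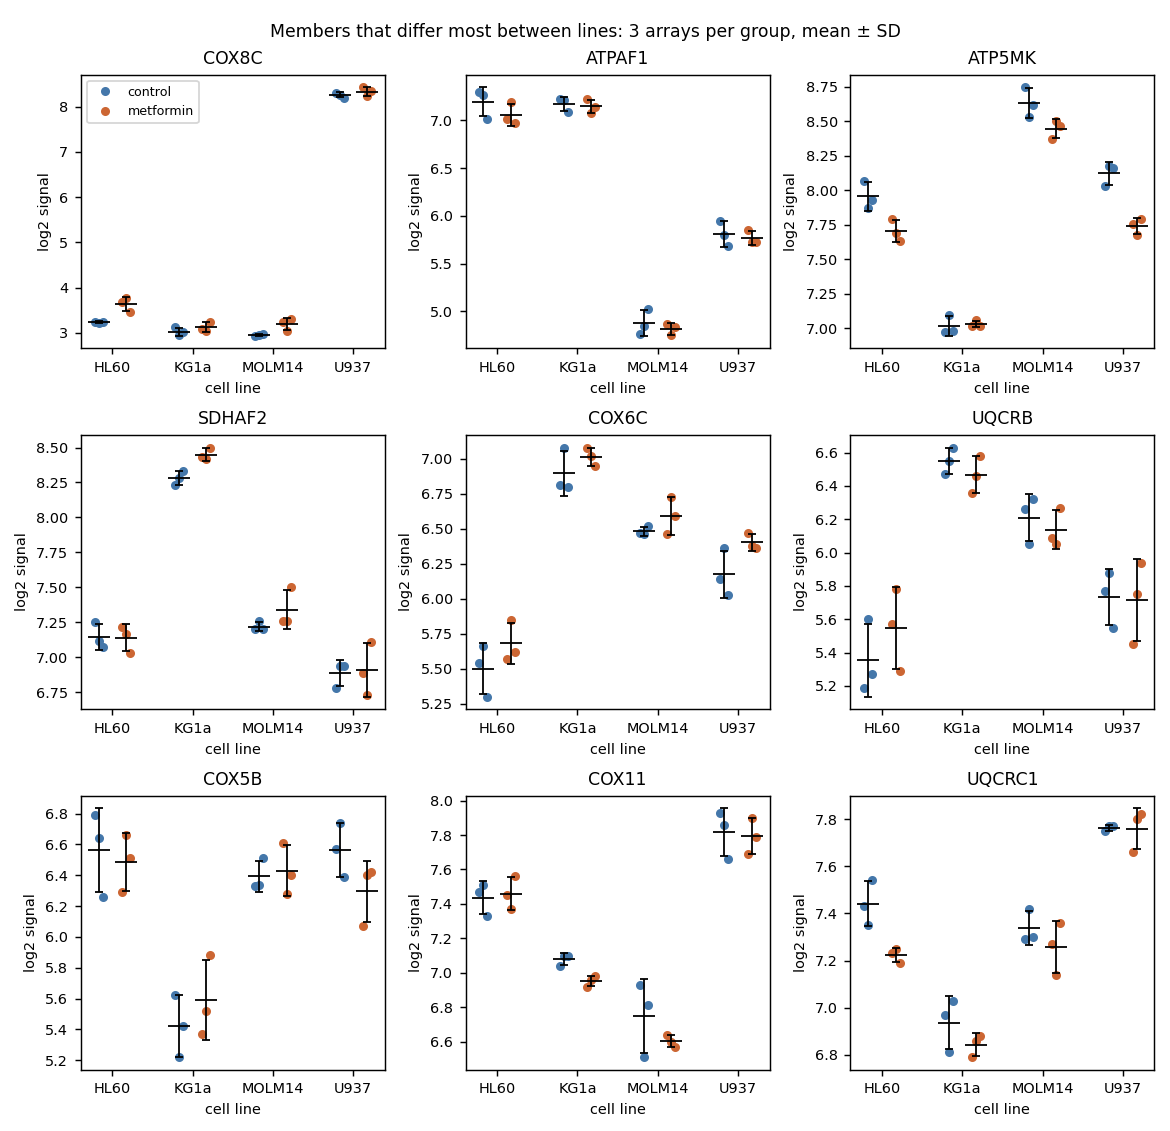
Log2 signal (y axis) on each of the 3 control and 3 metformin arrays of each line (x axis) for COX8C, ATPAF1, ATP5MK, SDHAF2, COX6C, UQCRB, COX5B, COX11 and UQCRC1, with lines at the mean ± SD. Among the control arrays, every one of KG1a and MOLM14 lies above those of HL60 and U937 for COX6C and UQCRB, and below them for COX11. COX8C is high in U937 alone.

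A gene that marks the high state, by the labels, would be higher in untreated KG1a and MOLM14 and fall there with metformin. Of the 51 genes, 0 passed both conditions in either direction, against 1.01% of all genes (0.583% of this kind and 0.423% in reverse). By limma at an unadjusted p under 0.05, 0 passed in this direction and 2 in reverse, and 1 (COX17, in reverse) passed when MOLM14 control C was left out. For these 2 counts the share of all genes is not given here. The mean metformin change of KG1a and MOLM14 passed for 3 genes (5.88%, against 8.12%), 1 higher (3.19% of all genes) and 2 lower (4.93%). They were UQCRC2 (0.17 ± 0.054, adjusted p 0.0473), COA3 (-0.37 ± 0.074, adjusted p 0.00266) and ATP5IF1 (-0.24 ± 0.062, adjusted p 0.0185). None of these was among the 18. For the 7 genes that were higher in the high lines, these changes were 0.11 ± 0.074 for COX6C, -0.08 ± 0.094 for UQCRB, 0.15 ± 0.064 for SDHAF2, 0.05 ± 0.066 for COA4, 0.32 ± 0.106 for SDHAF4, -0.16 ± 0.123 for SDHAF1 and -0.13 ± 0.098 for COX8A, and none passed.

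Of 35 further genes of assembly, haem and ubiquinone, 2 rose over the mean of lines and 6 fell (22.9%, against 32.3% of all genes), with a median of -0.02. CMC1, a COX1 assembly factor, rose by 0.55 ± 0.097 (adjusted p 1.16e-04). Its change was 1.12 in HL60 and 0.71 in U937, which passed, and 0.20 in KG1a and 0.16 in MOLM14, which did not, and the high minus low difference passed (-0.73 ± 0.193, adjusted p 0.0215). OXA1L, the insertase of the inner membrane, rose by 0.12 ± 0.042 (adjusted p 0.0258). TIMM21, an import subunit that meets early complex IV intermediates, fell by 0.30 ± 0.046 (adjusted p 2.61e-05), HCCS, which attaches haem to cytochromes c and c1, by 0.24 ± 0.066 (adjusted p 0.00648) and TACO1, which promotes COX1 translation, by 0.23 ± 0.057 (adjusted p 0.00285). CMC2, SLIRP and CHCHD2 fell by 0.12 to 0.17. Of 6 regulators and genes of mitochondrial DNA expression, 2 passed (33.3%): MTERF3 rose (0.14 ± 0.042, adjusted p 0.0124) and TWNK, the mitochondrial helicase, fell (-0.29 ± 0.040, adjusted p 7.64e-06). TWNK changed by -0.66 in U937 and -0.29 in HL60, which passed, and by -0.10 in KG1a and in MOLM14, which did not (high minus low difference 0.38 ± 0.081, adjusted p 0.00519). Of 4 other electron donors to ubiquinone, 1 passed (25%), as ETFDH rose (0.15 ± 0.054, adjusted p 0.0312). Of 8 genes of inner membrane architecture, 1 passed (12.5%), as PHB1 fell (-0.23 ± 0.062, adjusted p 0.00659).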

How the data were processed

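The authors deposited log2 normalized signals for 53617 rows on 24 arrays. The log2 scale is judged from the range of 1.88 to 14.2, since no source states the base. RNA (250 ng) was labelled per the labels' protocols, and Partek software was used per the submitters' processing notes. How background was corrected and signals were normalized and summarised is not given in the sources used here. A platform annotation pairs 16098 rows with 1 gene each and 0 with several, and leaves 37519 unnamed here. Every named row was found in RefSeq's genes (GRCh38.p14), with 0 symbols updated. The row with the highest mean stood for each of 14884 genes, and 10641 with at least 1 group mean of 4.02 were kept.

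A linear model of the 8 group means was fitted with limma 3.58.1 (R 4.3.3, 16 residual degrees of freedom), with Benjamini-Hochberg adjustment over the 10641 genes. The number of arrays limits the precision. Each group's probe values were compared with that probe alone, never with another's. Named are the genes past the threshold in the mean of 4 lines, up to 12 each way, up to 5 each way per line and for both class differences, the 8 widest untreated ranges, every gene of the high state pattern and the tissue isoforms. Genes named beyond this rule to complete a count were chosen after their values were seen. The gene lists, tests and members were chosen with earlier results of these data known.

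Same-lettered arrays did not deviate together (correlations of -0.062 to 0.146, 1 of 12 over 0.1), so letters were not used to pair arrays. Other settings tried were centred arrays, quantile normalization, other filters, thresholds and row choices, moderation with a trend, a letter block, fits on 1 line, and leaving out arrays or lines. The fit was tested on simulated data, where 100 of 10641 genes changed by each size, equally in all 4 lines, and the rest did not change. There the mean of 4 lines recovered 72% of changes of 0.25 and 98% of 0.5, and HL60 11% and 70%. In the real data far more genes passed (32.3% for the mean, 25.1% in HL60) and changes could differ by line, so these shares need not hold there. Figures used matplotlib 3.10.9 in Python 3.11.15.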

Additional observations from a re-analysis of the deposited data

Results flagged for a closer look

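The metformin change of COX19 differed between the 4 lines (limma's F test, adjusted p 0.00648), with 0.49 in HL60, 0.35 in U937, -0.15 in KG1a and -0.09 in MOLM14, and it differed between the high and the low lines (adjusted p 0.00172). The fall of COA3 differed between the high and the low lines (adjusted p 0.0449), with -0.39 in KG1a and -0.34 in MOLM14 against -0.78 in HL60 and -0.65 in U937. The cause was not tested for either gene.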

How the results depend on the processing

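No alternative turned the direction of a named change that had passed. Counts under other settings also move with all genes, and where no share of all genes is printed they are not set against it. For the mean of 4 lines, 23 genes became 11 at an adjusted p of 0.01 and 10 without HL60 (19 to 24 without single arrays). With each line as 1 value they became 3, where 4.38% of all genes passed. HL60 gave 14, but 9 with centred arrays (23.5% of all genes), 7 at 0.01 and 7 from its 6 arrays alone (8 to 15). KG1a gave 3, but 0 at 0.01 and 0 alone (1 to 3). MOLM14 gave 1, but 3 with a filter at 5 (7.96% of all genes) and 2 with a trend (5.85%). It gave 2 without the 3 arrays that stood apart, 2 alone and 0 at 0.01 (0 to 3). U937 gave 8, but 3 at 0.01, 3 alone and 5 without those 3 arrays (5 to 10). The F test between lines gave 1, but 2 after quantile normalization (10.8% of all genes), ATP5MK joining COX19 (1 to 2). The class difference in change gave 2, but 1 with centred arrays (5.38% of all genes) and 1 without a filter (3.94%). It also gave 1 at 0.01, without those 3 arrays, without KG1a and without MOLM14, and 0 without HL60 (1 to 3). The untreated class difference gave 18, but 33 without KG1a and 32 without U937, where fewer pairs of lines must share a sign (16 to 20). The untreated lines differed for 49 (47 to 49), and the high state held 0 (0 to 1). The replicate block gave 22 for the mean of 4 lines (32.2% of all genes), 14 for HL60 (24.4%), 2 for KG1a (2.2%) and 9 for U937 (16.9%). Arrays correlated best with their own letter in 6 of 12 cases. An alternative added after seeing the data kept only genes that reached 4.02 in each line compared. It gave 22 for the mean (37% of such genes), 13 for HL60 (28.6%), 3 for KG1a (2.84%), 1 for MOLM14 (5.83%) and 8 for U937 (19.5%). The median change of the 51 genes in KG1a, -0.041, was -0.078 to -0.023 without single arrays. Folds near the lower end of the scale are compressed, and 4 genes were too low to test.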
